A study of Mus musculus with 32 samples.

Results

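The data described here are the untreated bone marrow-derived macrophages (BMDMs) of 2 floxed genotypes, *Trex1* FL/FL and *Trex1* WT/FL, compared before any Cre induction and averaged over 4 days of culture. Libraries were taken by their labels alone: all those labelled untreated, which are 16 of the 32 in the series, 8 of each genotype and 2 of each genotype on each of days 1, 2, 3 and 4. Both genotypes also carry R26 CreERT2, a Cre recombinase fused to a mutated estrogen receptor and expressed from the ubiquitously active *Rosa26* locus, which stays inactive until 4-hydroxytamoxifen (4-OHT) binds it. In *Trex1* FL/FL cells both alleles of *Trex1* are flanked by loxP sites, and in *Trex1* WT/FL cells one allele is floxed and the other is wild type, so that the comparison asks whether the floxed alleles or the backgrounds of the donor mice differ in expression when no allele has been removed on purpose. The other 16 libraries came from the same genotypes after 22 h in 2 µg/ml 4-OHT, and days were counted from the end of that exposure for treated and untreated cells alike. Libraries are given here as library 1 and library 2 of a genotype and day, in the order of their records. The labels name no animal, age, sex, batch or replicate number, so p-values measure only the spread between these libraries.

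TREX1 is the major 3′ to 5′ DNA exonuclease of mammalian cells, anchored in the endoplasmic reticulum and the nuclear envelope. It degrades DNA in the cytosol, which would otherwise bind the sensor cGAS, and cGAS then makes the cyclic dinucleotide that activates STING. STING leads through the kinase TBK1 and the transcription factor IRF3 to type I interferon (IFN), which induces a large set of IFN-stimulated genes (ISGs). Macrophages express the whole route, and *Trex1* itself is an ISG.

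The libraries held 35120505 to 56904143 estimated counts, with medians of 44884499 for *Trex1* FL/FL and 42289906.5 for *Trex1* WT/FL. In a principal component analysis of log2 CPM, the counts of a gene per 1e6 counts of its library after TMM scaling,, the first 3 components held 60%, 9.71% and 4.86% of the variance, day accounted for 97.5% or more of each, and genotype for 0.0551% or less. Genotype held 4.64% of the fourth component (3.34% of the variance) and 30.2% of the fifth (2.71% of the variance). The summed level of 20 macrophage markers ran from 23313 to 76038 CPM in *Trex1* FL/FL and from 23225 to 75774 CPM in *Trex1* WT/FL libraries, and *Csf1r*, the receptor that M-CSF acts through, averaged 3808 and 3831 CPM. *Xist*, which is expressed from the inactive X chromosome, stood at 328 to 808 CPM in every library, *Tsix* at 2 to 26 counts, *Ddx3y* and *Uty* at 0 counts, and *Kdm5d* and *Eif2s3y* at 0 or 1 count. The 2 libraries of each of the 8 groups differed beyond what sampling of counts gives (chi-square per degree of freedom 9.33 to 49.9). The widest pair was *Trex1* FL/FL on day 1, where library 2 stood apart: over 254 genes at 10 CPM or more whose annotated transcripts hold at least 60% G and C, its median was 0.43 log2 units below the mean of the other 3 libraries of that day, against deviations of −0.09 to 0.17 in the other 15 libraries. Results that moved when it was left out are given without it as well.

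No difference in *Trex1* between the untreated genotypes passed the test. *Trex1* (ENSMUSG00000049734.9; GRCm39 chromosome 9, 108887001 to 108888802, minus strand) held, in *Trex1* FL/FL cells, 31.6 and 31.6 CPM on day 1, 120 and 102 on day 2, 144 and 137 on day 3 and 101 and 90.3 on day 4. The *Trex1* WT/FL libraries held 32.0 and 28.6 CPM on day 1, 124 and 114 on day 2, 129 and 141 on day 3 and 78.6 and 89.9 on day 4. The genotypes overlapped on days 1, 2 and 3, and on day 4 both *Trex1* FL/FL libraries lay above both *Trex1* WT/FL libraries. The log2 difference, here always *Trex1* FL/FL minus *Trex1* WT/FL, was 0.05 (95% interval −0.05 to 0.15, edgeR quasi-likelihood adjusted p = 0.899 with Benjamini-Hochberg adjustment), so that a loss or gain of more than 0.15 log2 units lies outside the interval. Every 31-base word of the annotated *Trex1* transcripts (1116 of 1116) also occurs in transcripts of other genes, most of them (1088) in *Atrip*, whose product is the partner of the DNA damage kinase ATR and whose gene spans *Trex1*. *Atrip* (chromosome 9, 108887001 to 108903228, minus strand) averaged 15.3 CPM in both genotypes, with a log2 difference of 0.00 (95% interval −0.09 to 0.09). In the 4-OHT-treated cells, which the comparison does not use, *Trex1* held 0 to 14 counts in the 8 *Trex1* FL/FL libraries, 6 of them at 0, whereas the lowest count among the 8 untreated *Trex1* FL/FL libraries was 1811.

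Genes around *Trex1* were described as a group, since a floxed allele is bred in with its flanking chromosome. Of 193 tested genes within 10 Mb of *Trex1*, 0 were called by edgeR or DESeq2, and 2 were higher and 9 lower in *Trex1* FL/FL at an unadjusted p below 0.05. Over all tested genes 4.17% were higher and 2.98% lower at that p, together 7.15%. The median log2 difference of the 193 genes was 0.01, against −0.00 for the other 627 tested genes of chromosome 9.

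**Figure D1:**
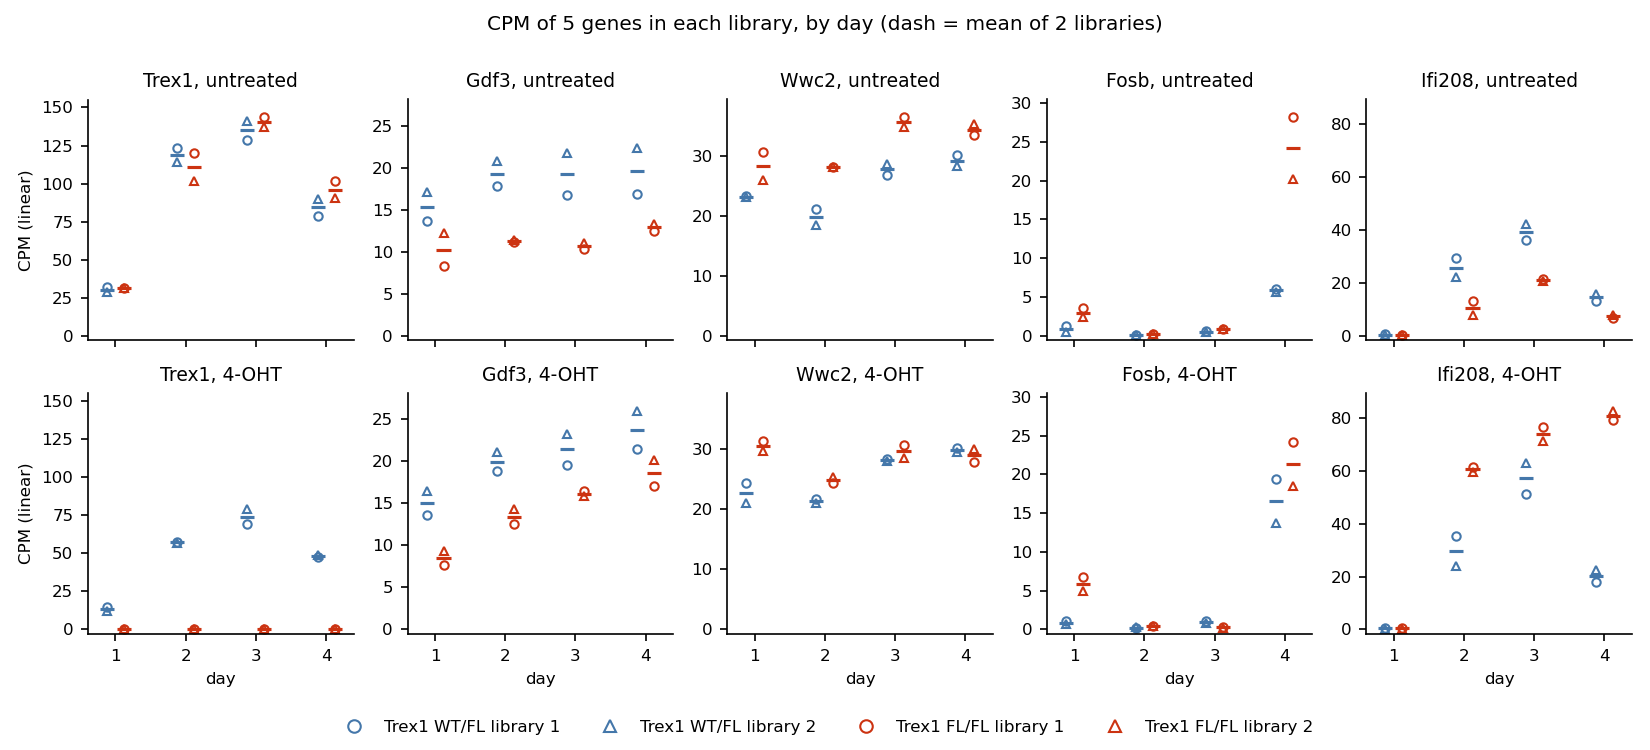
CPM on a linear axis (y) by day after the end of exposure (x) for *Trex1*, *Gdf3*, *Wwc2*, *Fosb* and *Ifi208* in untreated cells (upper row) and 4-OHT-treated cells (lower row), with *Trex1* WT/FL in blue, *Trex1* FL/FL in red, circles for library 1, triangles for library 2 and a dash for the mean of both. Untreated *Trex1* overlaps between genotypes on days 1 to 3 and is higher in both *Trex1* FL/FL libraries on day 4. *Gdf3* is lower and *Wwc2* higher in untreated *Trex1* FL/FL cells on each day. *Fosb* reaches 28.2 and 20.2 CPM in untreated *Trex1* FL/FL cells on day 4 against 5.99 and 5.68. *Ifi208* is lower in untreated but higher in 4-OHT-treated *Trex1* FL/FL cells on days 2 to 4.

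Across the transcriptome, 2 of 14746 tested genes were called at an edgeR adjusted p below 0.01, which is 0.0136% of those tested. *Gdf3* was lower and *Wwc2* higher in *Trex1* FL/FL BMDMs (0.00678% in each direction). With the study's added requirement of a log2 change beyond 1.5 in either direction, edgeR called 0 genes, DESeq2 called 3, limma-voom 1 and an edgeR fit with no filter on low counts 29, and at an edgeR adjusted p below 0.05 alone 4 genes (0.0271%) passed. An unadjusted p below 0.05 was reached by 1054 genes (7.15%), 615 of them higher (4.17%) and 439 lower (2.98%) in *Trex1* FL/FL. In the 4-OHT-treated libraries the contrast of genotypes averaged over days called 3624 of 14709 genes (24.6%). That fit used a mean for each of 8 groups, and the like fit of the untreated libraries called 1 gene. Most differences between the untreated genotypes were bounded closely. Of 11582 genes with a mean of at least 1 CPM, 97.2% differed by less than 0.25 log2 units, 94.1% had a 95% interval within 0.5 log2 units on either side of 0, and 99% had one within 1 log2 unit.

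*Gdf3* (ENSMUSG00000030117.5; chromosome 6, 122582317 to 122587197, minus strand) encodes a ligand of the TGF-β family that signals through activin type receptors. The *Trex1* FL/FL libraries held 8.27 and 12.2 CPM of it on day 1, 11.2 and 11.4 on day 2, 10.3 and 11.0 on day 3 and 12.5 and 13.2 on day 4. The *Trex1* WT/FL libraries held 13.7 and 17.1, 17.8 and 20.8, 16.7 and 21.8, and 16.9 and 22.3 CPM on the same days. Both *Trex1* FL/FL libraries lay below both *Trex1* WT/FL libraries on all 4 days, and the highest of the 8 *Trex1* FL/FL libraries (13.2 CPM) lay below the lowest of the 8 *Trex1* WT/FL libraries (13.7 CPM). Within *Trex1* WT/FL, library 2 was above library 1 on each day. The log2 difference was −0.70 (standard error 0.088, 95% interval −0.89 to −0.52, edgeR adjusted p = 0.00314), and it was −0.58, −0.76, −0.85 and −0.60 on days 1 to 4. None of 21 tested genes within 1 Mb of *Gdf3* had an unadjusted p below 0.05, and other genes held 3.1% of its 31-base words.

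*Wwc2* (ENSMUSG00000031563.8; chromosome 8, 48276994 to 48443959, minus strand) encodes a WW domain protein of the KIBRA family that acts on the Hippo pathway. Its level in the *Trex1* FL/FL libraries was 30.6 and 26.0 CPM on day 1, 28.2 and 28.1 on day 2, 36.5 and 34.8 on day 3 and 33.5 and 35.3 on day 4. Among *Trex1* WT/FL libraries it was 23.3 and 23.1, 21.1 and 18.5, 26.9 and 28.6, and 30.2 and 28.2 CPM. *Trex1* FL/FL libraries were the higher ones on all 4 days, although the ranges over all days overlapped, since the day 3 and day 4 libraries of both genotypes lay above their day 2 libraries. The log2 difference was 0.35 (standard error 0.048, 95% interval 0.25 to 0.45, edgeR adjusted p = 0.00314), with single days between 0.23 and 0.51. None of 9 tested genes within 1 Mb had an unadjusted p below 0.05. Both calls were close to the threshold. Leaving out 1 library ended the *Gdf3* call in 6 of 16 cases (*Trex1* WT/FL day 2 library 1 and day 4 library 2, and *Trex1* FL/FL day 2 library 1, both libraries of day 3 and day 4 library 1), with adjusted p of at most 0.0152 and log2 differences of −0.77 to −0.65 over all 16. It ended the *Wwc2* call in 6 cases (*Trex1* WT/FL day 2 library 1, day 3 library 1 and day 4 library 2, and *Trex1* FL/FL day 2 library 1 and both libraries of day 3), again with adjusted p of at most 0.0152 and log2 differences of 0.32 to 0.37. Without *Trex1* FL/FL day 1 library 2 the same 2 genes were called.

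*Gdf3* and *Wwc2* were looked at again in the 4-OHT-treated libraries. *Gdf3* ranged there from 7.65 to 20.2 CPM in *Trex1* FL/FL and from 13.7 to 26.0 CPM in *Trex1* WT/FL cells, with both *Trex1* FL/FL libraries below both *Trex1* WT/FL libraries on each day in the plot of CPM by day. Its log2 difference averaged over days was −0.54 (edgeR adjusted p = 5.63e-06) and on day 1 alone −0.83 (edgeR adjusted p = 0.0549). *Wwc2* differed by 0.17 (edgeR adjusted p = 0.00255) on average and by 0.43 (edgeR adjusted p = 0.0673) on day 1. On day 3 its treated *Trex1* FL/FL libraries held 30.8 and 28.6 CPM against 28.4 and 28.1 CPM. On day 4 the genotypes overlapped, at 27.8 and 30.1 CPM in *Trex1* FL/FL against 30.3 and 29.6 CPM. The test of the difference between untreated and treated cells did not pass for either gene (edgeR adjusted p = 0.445 for *Gdf3* and 0.0312 for *Wwc2*). Both genes were called in the same direction in the treated libraries, where the contrast called 24.6% of all tested genes. Within *Trex1* WT/FL, *Gdf3* in library 2 was above library 1 on each day after 4-OHT, as it was in untreated cells. The labels do not say whether treated and untreated libraries share mice, which was not tested, so the treated libraries cannot be taken as an independent test. Of the 20 genes with the smallest p in untreated cells, 16 had the same sign of the day 1 difference after 4-OHT and 14 the same sign of the average, against 55.7% and 55.6% of all 14405 genes tested in both.

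The other 2 genes at an adjusted p below 0.05, named after their values were seen, differed by more but varied more between libraries or days. *Fosb* (chromosome 7, 19036621 to 19043976, minus strand) encodes a subunit of the AP-1 transcription factor and is an immediate early gene, induced within minutes of many stimuli. Its counts in *Trex1* FL/FL cells were 213 and 136 on day 1, 12 and 8 on day 2, 32 and 29 on day 3 and 1528 and 696 on day 4, against 53 and 17, 2 and 1, 27 and 20, and 315 and 195 in the *Trex1* WT/FL ones. On day 4 these counts came to 28.2 and 20.2 CPM against 5.99 and 5.68 CPM. The *Trex1* FL/FL libraries were above the *Trex1* WT/FL libraries on all 4 days, but day 3 differed by 0.59 log2 units against 1.84, 2.68 and 2.05 on days 1, 2 and 4. The average log2 difference was 1.72 (standard error 0.239, 95% interval 1.21 to 2.23, edgeR adjusted p = 0.0154). Leaving out 1 library at a time moved the adjusted p from 0.00603 to 0.147 and the log2 difference from 1.55 to 1.87. After 4-OHT, *Fosb* was higher in *Trex1* FL/FL by 2.76 log2 units on day 1 (edgeR adjusted p = 0.000247), where it was one of 3 genes called (0.0204%). Over all days the difference after 4-OHT was 0.58 (edgeR adjusted p = 0.0234), and on day 3 the sign was the opposite, at 0.35 and 0.19 CPM in *Trex1* FL/FL against 1.05 and 0.87 CPM.

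*Ifi208* (chromosome 1, 173501241 to 173525961, plus strand) belongs to the AIM2-like receptors, a family of IFN-inducible proteins many of which bind DNA. On day 1 it was near the limit of detection, at 24 and 7 counts in *Trex1* FL/FL libraries against 22 and 10 counts. On day 2 it stood at 13.3 and 7.82 CPM against 29.2 and 22.1, on day 3 at 21.6 and 20.7 against 36.2 and 42.4, and on day 4 at 6.85 and 7.84 against 13.2 and 15.8. *Trex1* FL/FL libraries were the lower ones on days 2, 3 and 4, and the genotypes overlapped on day 1. The log2 difference was −1.02 (standard error 0.145, 95% interval −1.34 to −0.71, edgeR adjusted p = 0.0248). Without any one library it ran from −1.08 to −0.92 (adjusted p 0.00514 to 0.165). After 4-OHT the sign was the opposite, at 0.77 (edgeR adjusted p = 0.0189), and untreated and treated differences differed by −1.69 (edgeR adjusted p = 0.000542). That test was passed by 12.6% of genes over all days and by 1 gene (0.00655%), *Trex1*, on day 1. Other genes held 35.3% of the 31-base words of *Ifi208*, most of them *Ifi213*, so that the split of reads between these neighbours is uncertain. *Ifi213* differed by −0.22 (95% interval −0.40 to −0.04, edgeR adjusted p = 0.607) in untreated cells. Of 13 tested members of the family, 3 were above and 10 below 0, with a median of −0.05, edgeR called 0 and DESeq2 called *Ifi208*. *Aim2* differed by 0.03, *Mndal* by 0.01, *Ifi203* by 0.02, *Ifi204* by −0.01, *Ifi209* by −0.09 and *Ifi211* by −0.02, with unadjusted p of 0.136 or more.

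**Figure D2:**
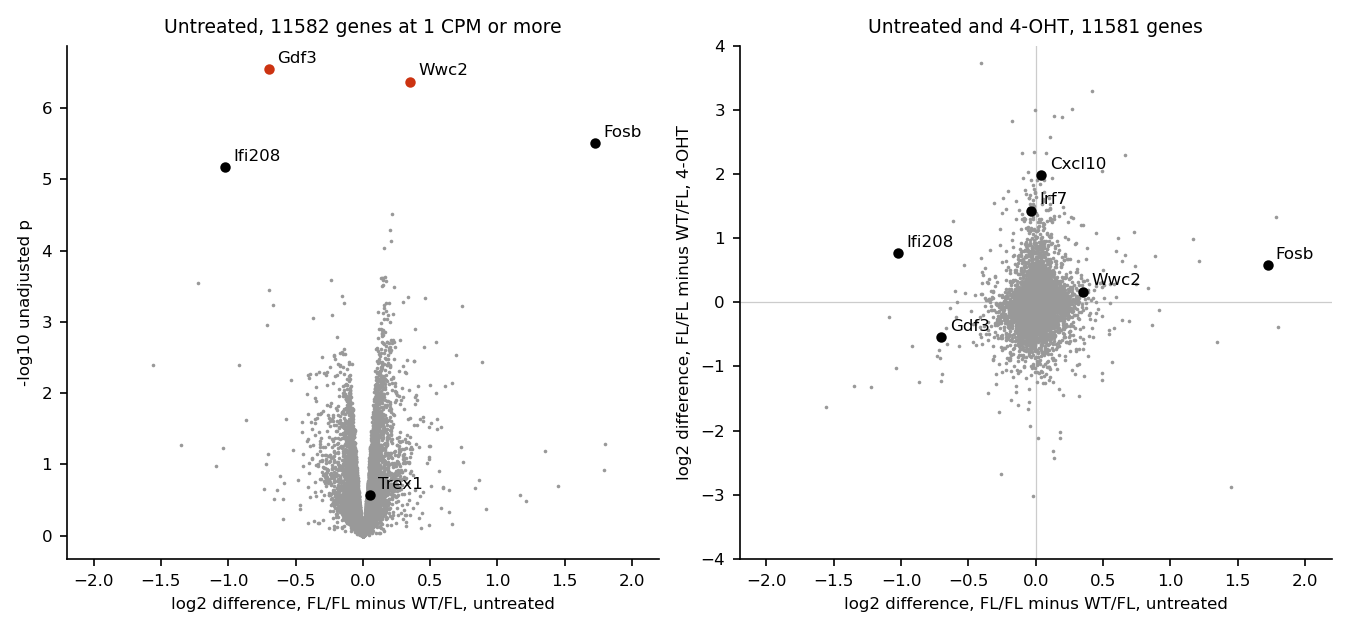
Left, log2 difference between untreated *Trex1* FL/FL and *Trex1* WT/FL cells (x) against −log10 of the unadjusted p (y) for the 11582 genes at a mean of 1 CPM or more, with the 2 called genes in red and *Fosb*, *Ifi208* and *Trex1* in black. Right, the same difference (x) against the difference after 4-OHT (y) for 11581 genes, where *Cxcl10* and *Irf7* lie near 0 on the untreated axis and at 1.99 and 1.43 on the treated axis. Points outside the axes (6 on the left and 7 on the right) are not drawn.

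No gene of the cGAS-STING route was called between the untreated genotypes. Of the 22 nucleic acid enzymes and sensors tested, 0 were called by edgeR or DESeq2, 0 had an unadjusted p below 0.05, and differences ran from −0.04 to 0.08 with a median of 0.01, against 0.00 over all tested genes. *Cgas* averaged 20.2 CPM in both genotypes, with a log2 difference of −0.01 (95% interval −0.13 to 0.11). *Sting1*, the adaptor below cGAS, averaged 48.9 and 48.8 CPM, and *Irf3*, the transcription factor at its end, 40.1 and 40.3 CPM, with *Trex1* FL/FL given first. All 22 had a 95% interval within 0.5 log2 units of 0.

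ISGs lie downstream of this route. Of 83 tested ISGs, 0 were called by edgeR or DESeq2, 2 had an unadjusted p below 0.05 and were higher, 1 was lower, and 40 differences were above and 43 below 0, with a median of −0.00. This list was compiled by hand and did not hold *Ifi208* (−1.02, called by DESeq2 and not by edgeR) or *Ifi213* (−0.22), the IFN-inducible genes described above. The interval lay within 0.5 log2 units of 0 for 78 of the 83 and within 1 log2 unit for 81. The smallest p belonged to *Cd274*, which encodes PD-L1, at −0.10, to *Oas1g*, a 2′-5′ oligoadenylate synthetase, at 0.11, and to *Fcgr1*, a high-affinity Fc receptor, at 0.13 (edgeR adjusted p = 0.566, 0.607 and 0.612). *Cxcl10*, the chemokine for CXCR3, showed how the level moved with day in both genotypes: its *Trex1* FL/FL libraries held 16.1 and 17.7 CPM against 21.9 and 18.7 CPM on day 1, 115 and 103 against 113 and 123 on day 2, 85.1 and 75.8 against 56.5 and 98.8 on day 3, and 17.6 and 21.1 against 9.55 and 17.1 on day 4. The average difference was 0.04 (95% interval −0.30 to 0.38). *Irf7*, the transcription factor that amplifies IFN production, differed by −0.03, *Isg15*, a ubiquitin-like modifier, by 0.10 and *Usp18*, which removes ISG15, by 0.05. *Ifnb1*, the gene of interferon β, held 0 to 2 counts in the 8 *Trex1* FL/FL and 0 to 5 in the 8 *Trex1* WT/FL libraries, and at such low counts a difference could not be judged. After 4-OHT it held 12 to 20 counts in *Trex1* FL/FL libraries of days 2 to 4, against 0 to 6 counts in *Trex1* WT/FL libraries. In the 4-OHT-treated libraries the same 83 ISGs had a median log2 difference of 1.06, and 82 were called, against 24.6% of all genes tested there.

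By day, the median difference of the ISGs was 0.02, −0.11, 0.05 and 0.10 on days 1 to 4, with 44, 9, 64 and 54 of 83 above 0, while the median over all tested genes stayed between 0.00 and 0.01. The direction of the day 2 and day 4 medians thus differed, and no single ISG had a change between days that passed the test.

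**Figure D3:**
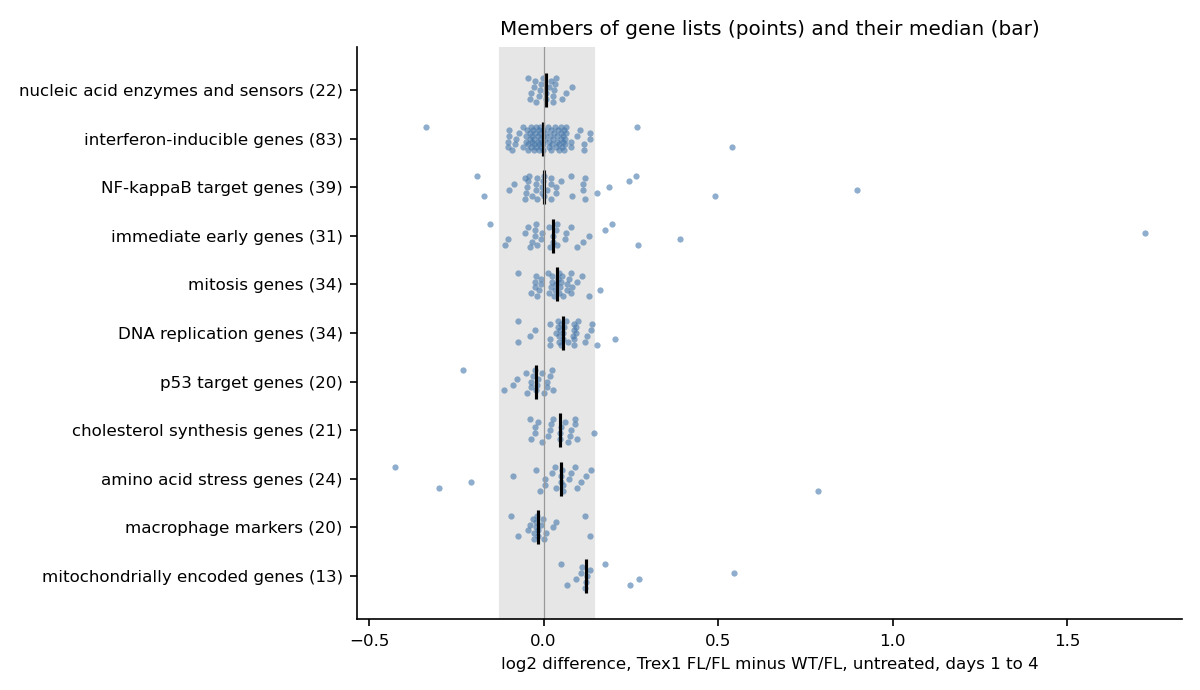
Log2 difference between untreated *Trex1* FL/FL and *Trex1* WT/FL cells, averaged over days (x), for the tested members of 11 gene lists (y, number tested in brackets). Each point is a gene, the black bar is the median of the list, and the grey band from −0.125 to 0.144 holds 90% of the 11582 genes at 1 CPM or more. Medians lie between −0.02 and 0.12, and the farthest point is *Fosb* among the immediate early genes at 1.72.

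Inflammatory and growth genes were described by the same counts, and edgeR called 0 members of any list. Over all tested genes, 4.17% were higher and 2.98% lower at an unadjusted p below 0.05, and the median log2 difference was 0.00. Of 31 immediate early genes, 6 had an unadjusted p below 0.05 and all 6 were higher in *Trex1* FL/FL. Beside *Fosb*, which DESeq2 called, these included *Zfp36*, which encodes an mRNA decay factor, at 0.13 and *Dusp1*, a phosphatase of MAP kinases, at 0.20 (edgeR adjusted p = 0.462 and 0.499). *Fos* averaged 259 CPM in *Trex1* FL/FL against 236 CPM, with a log2 difference of 0.18, and the median of the list was 0.03. Among 39 NF-κB target genes the median was 0.00 and 3 had an unadjusted p below 0.05, all higher, among them the chemokines *Ccl4* at 0.27 and *Ccl3* at 0.15 (edgeR adjusted p = 0.534 and 0.619). *Tnf* differed by 0.12 (95% interval −0.00 to 0.24).

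Of 34 DNA replication genes, 30 were higher in *Trex1* FL/FL, with a median of 0.06 against 0.00 over all tested genes. An unadjusted p below 0.05 was reached by 5 of the 34, all higher, and 4.17% of all tested genes were higher at that p. The replication genes with the smallest p were *Mcm3* of the replicative helicase at 0.13, *Ccne1*, encoding cyclin E1, at 0.20 and *Tyms*, encoding thymidylate synthase, at 0.13 (edgeR adjusted p = 0.478, 0.550 and 0.612). Of 34 mitosis genes, 25 were higher, with a median of 0.04. Their medians by day were 0.05, 0.01, 0.28 and −0.13, with 31 of 34 above 0 on day 3 and 5 of 34 on day 4. Over all tested genes the medians by day stayed between 0.00 and 0.01. *Aspm*, which is needed at the spindle poles, differed by 0.86 on day 3 and by −0.20 on day 4, and *Ccnb2*, encoding cyclin B2, by 0.71 and 0.08. All 34 mitosis and all 34 DNA replication genes had an interval of the average difference within 0.5 log2 units of 0. The 20 tested p53 target genes had a median of −0.02, the 21 cholesterol synthesis genes 0.05 and the 24 amino acid stress genes 0.05, where *Slc7a11*, the cystine transporter, was at −0.30 (edgeR adjusted p = 0.462).

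The difference between genotypes did not change with day for any gene at an edgeR adjusted p below 0.01. Of 14746 genes, 0 passed, 849 (5.76%) had an unadjusted p below 0.05, and DESeq2 called 4. On single days, edgeR called 0, 0, 1 and 0 genes at an adjusted p below 0.01 on days 1 to 4 (0%, 0%, 0.00678% and 0%). At an adjusted p below 0.05 it called 0, 1, 3 and 64 (0%, 0.00678%, 0.0203% and 0.434%). An unadjusted p below 0.05 was reached by 2.39% of genes higher and 2.68% lower on day 1, 1.77% and 1.44% on day 2, 1.51% and 1.06% on day 3, and 6.46% and 7.84% on day 4, which held the most. The identifier called on day 3, named after its values were seen, was ENSMUSG00000020807.15, one of 2 with the symbol *4933427D14Rik*. It stood at 4.58 and 3.66 CPM in *Trex1* FL/FL against 11.7 and 10.8 CPM on that day and at 7.34 to 11.1 CPM in all libraries of the other days. The other identifier (ENSMUSG00000107877.2), annotated at nearly the same position and strand, went the opposite way on day 3, at 5.83 and 6.27 CPM in *Trex1* FL/FL against 0.299 and 0.508 CPM (log2 difference 3.90, edgeR adjusted p = 1). The counts of both identifiers together were 416 and 358 against 562 and 468, so that the call does not show a drop of the gene as a whole, and reads of the overlapping identifiers cannot be told apart with certainty. The count of genes that changed with day depended on *Trex1* FL/FL day 1, the group with the widest pair. Without library 1 of that group 358 genes passed the test of a change with day, when day 1 rested on library 2 alone, and without library 2 the count was 0 in edgeR.

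A small difference ran with transcript length, a grouping chosen after values were seen. Of 8729 genes at 10 CPM or more, sorted into 5 bins by the median length of their annotated transcripts, the shortest bin (108 to 1611 bases) had a median log2 difference of 0.04 and the longest (4483 to 123193 bases) of −0.03. In the shortest bin 310 of 1747 genes had an unadjusted p below 0.05 and were higher in *Trex1* FL/FL, and 22 were lower. In the longest bin 18 of 1745 were higher and 168 lower. After 4-OHT the difference between genotypes ran the same way, with medians of 0.035 in the shortest and −0.056 in the longest bin. In untreated cells the shortest bin differed by 0.04, 0.02, 0.01 and 0.14 on days 1 to 4. On day 4 its median deviation from the mean of the day was 0.06 and 0.06 for *Trex1* FL/FL, against −0.08 and −0.05 for *Trex1* WT/FL.

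**Figure D4:**
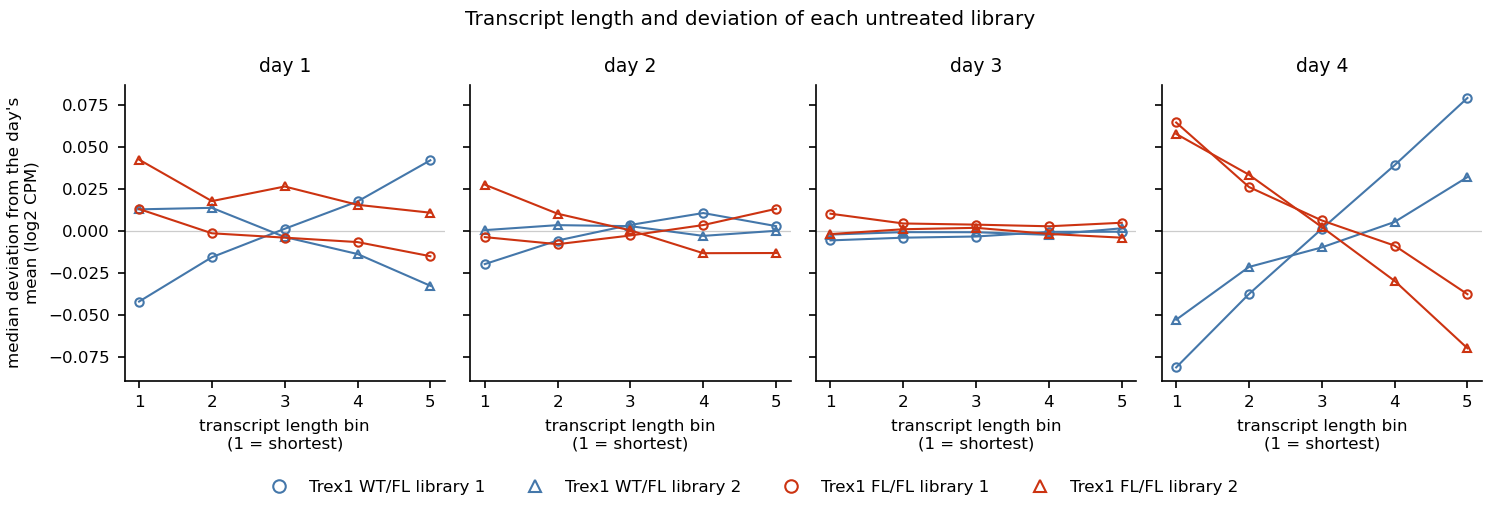
Median deviation of each untreated library from the mean of its day, in log2 CPM (y), for 5 bins of genes from the shortest to the longest annotated transcripts (x), by day, with *Trex1* WT/FL in blue, *Trex1* FL/FL in red, circles for library 1 and triangles for library 2. On day 4 the genotypes slope in opposite directions, from 0.06 to −0.04 and −0.07 in *Trex1* FL/FL and from −0.08 and −0.05 to 0.08 and 0.03 in *Trex1* WT/FL, and on day 3 all 4 lines are flat.

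Genes with short transcripts that encode parts of the ribosome and the respiratory chain lay on the higher side, and both lists were made after values were seen. Of 79 cytosolic ribosomal protein genes, 75 were higher in *Trex1* FL/FL, 35 of them at an unadjusted p below 0.05, with a median of 0.08 and by day of 0.13, 0.02, −0.01 and 0.20. Without *Trex1* FL/FL day 4 library 1 that median was 0.051. Of 88 nuclear genes of the respiratory chain, 85 were higher, 52 of them at an unadjusted p below 0.05, with a median of 0.11 and by day of 0.13, 0.05, 0.02 and 0.23. None was called by edgeR, and DESeq2 called *Ndufa4*. Of all tested genes, 4.17% were higher at an unadjusted p below 0.05, and their median log2 difference was 0.00. The median of annotated transcript lengths was 774 bases for the ribosomal and 764.5 bases for the respiratory chain genes against 2538 bases over all tested genes, and its part in these differences was not tested. *Mrpl51*, a mitochondrial ribosomal protein gene with the fifth-smallest p, ranged from 23.7 to 54.8 CPM in *Trex1* FL/FL and from 18.0 to 48.9 CPM in *Trex1* WT/FL libraries and was the higher in *Trex1* FL/FL on all 4 days. Its log2 difference was 0.21 (95% interval 0.13 to 0.30, edgeR adjusted p = 0.0918).

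All 13 mitochondrially encoded genes were higher in *Trex1* FL/FL, with a median of 0.12, 2 at an unadjusted p below 0.05 and 0 called by edgeR or DESeq2. Of all tested genes, 4.17% were higher at that p. The share of counts from the mitochondrial genome was 2.18% to 3.96% in *Trex1* FL/FL and overlapped with the 2.35% to 3.60% of *Trex1* WT/FL libraries. On days 1 and 2 the libraries of *Trex1* FL/FL differed from each other, with the 13 genes at 33498 and 32797 CPM in library 2 against 24109 and 22831 CPM in library 1. Without library 2 of day 1 the median was 0.0799, and without library 2 of day 2 it was 0.053. *mt-Atp8*, a subunit of ATP synthase, was higher in library 1 than in library 2 of *Trex1* FL/FL on each day, at 273, 190, 141 and 304 CPM in library 1 and 203, 170, 100 and 159 in library 2 on days 1 to 4, against 93.4 to 159 CPM in *Trex1* WT/FL libraries. It was higher in *Trex1* FL/FL on all 4 days, with a log2 difference of 0.55 (95% interval 0.25 to 0.84, edgeR adjusted p = 0.439).

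Counts of genes whose 2 *Trex1* FL/FL libraries lay on one side of the 2 *Trex1* WT/FL libraries on all 4 days were 26 higher (0.176%) and 19 lower (0.129%), together 0.305% of the 14746 genes tested. *Gdf3*, *Wwc2*, *Fosb*, *Mrpl51*, *mt-Atp8* and *Atp9a* were among these 45. *Atp9a*, a phospholipid flippase gene named after its values were seen, showed how far the 2 libraries of a genotype could differ throughout. The *Trex1* WT/FL libraries held 0.86, 0.91, 1.35 and 0.93 CPM in library 1 and at 2.04, 2.01, 2.52 and 2.01 CPM in library 2 on days 1 to 4, and the *Trex1* FL/FL libraries 0.227 to 0.905 CPM. The log2 difference was −1.23 (95% interval −1.80 to −0.65, edgeR adjusted p = 0.254). After 4-OHT the *Trex1* WT/FL libraries were split in the same order. Library 1 held 0.78, 0.83, 0.99 and 1.03 CPM and library 2 held 2.44, 3.27, 2.28 and 2.64 CPM on days 1 to 4. The treated *Trex1* FL/FL libraries held 0.427 to 1.22 CPM.

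This raised the question of whether libraries of one genotype are independent across days. The titles of the libraries run in consecutive numbers over days 1 to 4, which gives 2 runs for each genotype. Over the 14746 tested genes, the difference between the 2 libraries of a group on one day correlated with that on another day with Pearson's r of 0.0702 to 0.164 in *Trex1* FL/FL, of 0.0283 to 0.0989 in *Trex1* WT/FL and of −0.0015 to 0.0798 between genotypes (a description over genes, which are not independent, with shared groups). If a run stands for one mouse or culture, each genotype is represented by 2 of them and not by 8, and the labels do not say. With the counts of each run summed over days, edgeR called 1 gene at an adjusted p below 0.01, which was *Ifi208*, and neither *Gdf3* nor *Wwc2*. That fit had no day term and weighted each day by its depth, so it mixes depth with genotype. On day 1, where *Ifi208* was lowest, the *Trex1* FL/FL libraries were the deeper ones. *Atrip* held 863 and 821 counts there against 642 and 577, at 14.3 and 14.3 CPM against 14.9 and 14.0. The part of depth in the call was not tested. With the run as a random effect in limma-voom (consensus correlation 0.0514), *Gdf3*, *Fosb* and *Ifi208* were called.

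Markers of other cells summed to less than the macrophage markers in both genotypes. The 17 lymphocyte markers summed to 75.4 to 284 CPM in *Trex1* FL/FL libraries and 70.1 to 301 CPM in *Trex1* WT/FL libraries. For the 11 erythroid and platelet markers the sums were 73.3 to 171 CPM and 73.6 to 177 CPM, and for the 10 dendritic cell markers 7.37 to 29.9 CPM and 8.10 to 31.4 CPM. The 16 neutrophil and progenitor markers summed to 13.6 to 63.6 CPM in *Trex1* FL/FL libraries and 14.8 to 66.1 CPM in *Trex1* WT/FL libraries, and 11 of 14 tested were lower in *Trex1* FL/FL, with a median of −0.26 and 0 called. *Ltf*, encoding lactoferrin of neutrophil granules, averaged 1.57 CPM in *Trex1* FL/FL against 2.30 CPM (edgeR adjusted p = 0.619). The 10 stromal markers summed to 0.696 to 4.91 CPM and 0.788 to 3.41 CPM, and the highest values were those of the 2 *Trex1* FL/FL libraries of day 4, where *Postn*, a matrix protein of fibroblasts, held 24 and 20 counts against 0 to 3 counts in the other 14 libraries. In bulk RNA, fewer cells of a type and less RNA per cell cannot be told apart. Of the strain-variable genes, *H2-Ea* was at 0 counts in all 16 libraries and *Ifi202b* at 0 to 6 counts. *Nnt*, which lacks exons in C57BL/6J mice, ranged from 10.5 to 22.1 CPM in *Trex1* FL/FL and from 11.3 to 31.9 CPM in *Trex1* WT/FL libraries, with a log2 difference of −0.45 (95% interval −0.94 to 0.04). The strain background of the mice was not tested here.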

How the data were processed

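RNA of BMDMs was sequenced on an Illumina NovaSeq. The authors split the reads by sample with JE, ran FastQC (11.9 in the submitters' processing notes), and obtained transcript abundances from Salmon, with GRCm39 as reference, which tximport brought to the level of genes. What was deposited are estimated counts, in whole numbers, that had not been normalized, so that no rounding was needed. The annotation release and any length correction are not given in the sources used here.

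Of 54281 identifiers, 51048 matched GENCODE vM39, which gave symbols, positions and transcript sequences, and the others held 0.32% of all counts. Counts of the 16 untreated libraries entered edgeR 4.0.16 under R 4.3.3 (filterByExpr with a minimum count of 10, TMM factors, glmQLFit with robust estimation, glmQLFTest with day as a factor, 11 residual degrees of freedom), with Benjamini-Hochberg adjustment over 14746 genes and a common biological coefficient of variation of 0.0982. Changes with day and single days used a mean for each of 8 groups (8 residual degrees of freedom). The 16 treated libraries were also fitted with a mean for each of 8 groups, averaged over days, and the test of genotype by treatment used all 32. Standard errors and 95% intervals were derived from the quasi-likelihood F. CPM used the TMM factors of all 32 libraries, and log2 CPM for principal components a prior count of 2. The test was checked on simulated counts. DESeq2 1.42.0 and limma 3.58.1 gave alternatives. Intervals cover the spread between libraries.

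The genes named were *Trex1*, *Atrip*, up to 12 called genes in each direction with a mean of at least 1 CPM and one sign on all 4 days, up to 3 called members of each list, called genes within 10 Mb of *Trex1* and sex-linked genes. Called genes at the study's thresholds or changing with day would also have been named, and predicted genes were left out. All other genes in the text were picked with their values in view. The comparison, the lists, which were compiled by hand, and the alternatives were chosen with earlier results of these data known. The ribosomal, respiratory chain and AIM2-like groups and the length and base composition bins were added later. Protein, PCR and bioactivity data were not analysed here.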

Additional observations from a re-analysis of the deposited data

Results flagged for a closer look

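For 27 of 58 gene identifiers drawn up for naming, the genotype difference was not the same in untreated and 4-OHT-treated cells (test of genotype by treatment averaged over days, edgeR adjusted p below 0.01, which 1922 of 15257 genes or 12.6% passed). Most of the 58 were picked with their values in view, so their share cannot be compared with that of all genes. Values are the untreated log2 difference minus that after 4-OHT. *Trex1* stood at 12.24, a value that depends on the prior count because 6 of the 8 treated *Trex1* FL/FL libraries held 0 counts of it. ISGs were lower on this scale: *Cxcl10* at −1.93, *Isg15* at −1.54, *Usp18* at −1.49, *Irf7* at −1.47, *Fcgr1* at −1.17, *Cd274* at −0.91, *Oas1g* at −0.90 and *Cgas* at −0.47. AIM2-like receptor genes were *Ifi208* at −1.69, *Ifi213* at −1.67, *Ifi211* at −1.44, *Ifi209* at −1.34, *Ifi204* at −1.14, *Mndal* at −0.82, *Ifi203* at −0.73 and *Aim2* at −0.33. Of these, *Ifi208* was the one with a 95% interval below −0.5 in untreated cells.

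Also lower were *Ccl4* at −1.06 and *Atf4*, a transcription factor of amino acid stress, at −0.40. Higher on this scale were the mitosis genes *Ccnb2* at 1.25, *Aspm* at 1.19 and *Birc5* at 1.03, the replication gene *Mcm3* at 0.37, *mt-Atp8* at 0.97, *mt-Nd6* at 0.57, *Ndufa4* at 0.22 and *Csf1r* at 0.18. On day 1 alone 1 gene (0.00655%), *Trex1*, passed the same test. No single library lay far from the others of its genotype in 26 groups of 8 values (library totals, detected genes, mitochondrial share, share of the 10 highest genes, and CPM of 9 genes), by a gap test that chance passes in about 1 of 20 groups. Each group pooled all days, so the test could miss a library that stood apart only within its day.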

How the results depend on the processing

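The number of called genes, 2 as reported, stayed between 0 and 4 under all alternatives except 2. DESeq2 called 9 and a fit of every gene with any count called 146, whose cause was not tested. It was 4 with limma-voom and at an adjusted p below 0.05, 1 with a mean for each of 8 groups, without day 3 and with counts summed per run (chosen after seeing the data), and 0 without a day term, without day 2, without day 4 and when a change above 0.5 log2 units was tested (glmTreat). Leaving out 1 library gave 0 to 4. The other factors, filters and fits gave 2 or 3. *Gdf3* kept its sign in all 33 alternatives (−0.77 to −0.65), as did *Wwc2* (0.29 to 0.39), *Fosb* (1.47 to 2.00) and *Ifi208* (−1.23 to −0.90), whereas *Gdf3* and *Wwc2* each lost the call in 13 of them. *Trex1* changed sign to −0.0737 with counts summed per run. *Atrip*, at 0.00, changed sign to values of −0.00 (DESeq2 −0.00036, limma-voom −0.00044, with the run as random effect −0.00044, all 32 libraries −0.00073, no day term −0.00067), −0.0083 without day 2, −0.019 without day 3 and −0.0074 with summed runs, and ranged from −0.012 to 0.012 when 1 library was left out. Genes whose difference changed with day numbered 0 as reported, 4 with the DESeq2 likelihood ratio test and 0 to 358 when 1 library was left out. Of these, 1 passed without *Trex1* WT/FL day 3 library 1 and 1 without *Trex1* FL/FL day 4 library 1. The test of genotype by treatment called 1922 genes over all days and 1 on day 1. With no filter 29 genes passed the study's thresholds, against 0 as reported and 0 to 3 under the other alternatives. The median of mitochondrially encoded genes fell from 0.12 to 0.0799 without *Trex1* FL/FL day 1 library 2 and to 0.053 without day 2 library 2. Without day 4 the ribosomal median fell from 0.08 to 0.0398 and that of the respiratory chain from 0.11 to 0.0694. With counts summed per run the medians were −0.149 for ISGs, −0.0279 for nucleic acid genes and 0.227 for DNA replication genes. That fit had no day term and weighted each day by its depth, so these medians and its *Trex1* and *Atrip* values mix day with genotype. No paired analysis was possible because the labels give no replicate numbers, animals or batches.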
